A study of Mus musculus with 2 samples.

Results

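Mature dendritic cells carrying Ccr7 and Ccl22 were described here in dissociated mouse abdominal aorta, in an aneurysm model made by infusing porcine pancreatic elastase (PPE). One library came from C57BL/6J mice (WT, wild type) and 1 from mice with a global deletion of Gsdme (Gsdme-KO), both after PPE, so neither was an untreated aorta, and each was captured on the BD Rhapsody system. How many animals were pooled in a library, and their age and sex, were not given in the sources used here. A barcode passed as a cell when it held 500 or more UMIs (unique molecular identifiers, each standing for 1 captured transcript) from 250 or more genes and mitochondrial UMIs made up no more than 25%. It was counted as a mature dendritic cell when at least 2 of Ccr7, Fscn1, Ccl22 and Il12b had a UMI, when Cd74, H2-Aa, H2-Ab1 and H2-Eb1 together had at least 3 UMIs, and when Cd3e, Cd79a and Col3a1 had at most 1 UMI each. That gave 51 of 7619 kept cells in the WT library and 45 of 8784 in the Gsdme-KO library, so everything below rests on 96 cells. These 8 marker and class II genes chose the cells, and their values are given as a description only.

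Dendritic cells sample antigen and present it to T cells. On maturation they raise the chemokine receptor CCR7, which guides them along lymphatic vessels to lymph nodes, together with fascin, the actin-bundling protein encoded by Fscn1, and costimulatory ligands, while they lose receptors for antigen uptake. Ccl22 encodes a chemokine that draws T cells bearing CCR4, including regulatory T cells, and Il12b encodes the subunit shared by interleukins 12 and 23. GSDME, the deleted protein, is a pore-forming gasdermin.

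With 1 library per group there is no replicate and no test. Levels are UMIs summed over the cells of a class scaled to 1000000 UMIs of that class (CPM), and paired values are given for WT first and Gsdme-KO next, and brackets give 95% intervals that cover counting error only, Poisson for levels, Clopper-Pearson for shares and conditional binomial for ratios. A gene is described as past 2-fold when its CPM ratio was at least 2 or at most 0.5, and as measured when the cells compared held at least 20 UMIs of it over both libraries. A ratio against a count of 0 was computed with the floor of 3 counts and is a bound. The mature dendritic cells held 308161 UMIs in WT and 254101 in Gsdme-KO, with a median per cell of 4802 and 4864 UMIs, 1999 and 1966 genes, and 2.28% and 3.11% mitochondrial UMIs. The libraries shared 65 cell barcodes among kept cells and 0 among mature dendritic cells. Doublets were not called.

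Gsdme itself had 0 UMIs in the mature dendritic cells of both libraries, which allows up to 9.74 and 11.8 CPM, so the deletion could not be checked in these cells. Across all other kept cells it stood at 5.58 CPM (215 UMIs) in the WT library and at 2.56 CPM (133 UMIs) in the Gsdme-KO library. The sources used here do not name the deleted exons, so these UMIs, which may lie outside them, do not check the label.

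Mature dendritic cells made up 0.669% (0.499 to 0.879) of kept cells in WT and 0.512% (0.374 to 0.685) in Gsdme-KO, a ratio of 0.765 (0.501 to 1.17). Over cells with at least 3 class II UMIs the shares were 1.28% and 1.19%, a ratio of 0.931 (0.609 to 1.42). Conventional dendritic cells, defined by at least 2 of Flt3, Zbtb46, Cd209a, Xcr1, Clec9a and Wdfy4 with fewer than 2 of the mature markers, at most 10 C1q UMIs and the same class II and lineage limits, numbered 155 and 190. These 2 intervals for the ratio held 1. The interval lay below 1 with at least 3 markers, at 0.514 (0.259 to 0.989) from 27 and 16 cells, and without cells holding a UMI of Cd209a, Clec10a or Mgl2, a choice made after seeing the data, at 0.510 (0.278 to 0.912) from 34 and 20 cells, so what abundance showed depended on the rule. The yield of dissociation was not measured and can also set such shares.

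The 4 marker genes lay, in the mm10 annotation of GENCODE vM21, at chr11:99144196-99155077 on the minus strand for Ccr7, chr5:142960343-142973185 for Fscn1, chr8:94745590-94751699 for Ccl22 and chr11:44400063-44414033 for Il12b, the last 3 on the plus strand. Ccr7 had a UMI in 48 WT and 42 Gsdme-KO cells. Per cell it ran from 0 through a median of 9 to 40 UMIs in WT and from 0 through 4 to 23 in Gsdme-KO. Fscn1 ran from 0 through 7 to 36 UMIs in WT and from 0 through 1 to 50 in Gsdme-KO. The ranges of the libraries overlapped throughout. Ccl22 was uneven, with 63.6% of its WT UMIs and 62.6% of its Gsdme-KO UMIs in 5 cells of each library. Il12b was more so, with a UMI in 23 and 13 cells and 73.1% and 82.4% of its UMIs in 5 cells.

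Summed over the cells, Ccr7 was at 1902 and 1059 CPM in the WT and Gsdme-KO libraries, Fscn1 at 1730 and 1192 CPM, Ccl22 at 847 and 579 CPM, and Il12b at 639 and 358 CPM. Each marker was thus lower in Gsdme-KO, between 0.557-fold for Ccr7 and 0.689-fold for Fscn1, which describes the chosen cells and supports nothing about the deletion. This order turned for 3 of them among cells with at least 3 markers, where Fscn1 was 1.07-fold, Ccl22 1.04-fold and Il12b 1.06-fold, and Ccl22 was 1.20-fold among cells with Cd3e, Cd79a and Col3a1 at 0 UMIs. The class II genes were near equal, from 0.849-fold for Cd74, the invariant chain, to 1.01-fold for H2-Ab1. Fscn1 was no marker of these cells alone, since 49.7% of its UMIs among WT cells and 80.2% among Gsdme-KO cells lay in fibroblasts. Il12b had 48.3% and 59.9% of its UMIs in mature dendritic cells and 19.9% and 3.29% in macrophages.

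The commonest way to meet the rule was Ccr7 with Ccl22 and neither other marker, in 12 WT and 19 Gsdme-KO cells. All 4 markers were found in 10 and 5 cells, 3 markers in 17 and 11, and 2 markers in 24 and 29. Just outside the rule, 163 WT and 102 Gsdme-KO cells met the other conditions with 1 marker. Cells inside with 2 markers held a median of 9 and 5 marker UMIs, against 1 in both libraries for cells with 1 marker. A further 21 and 19 cells were left out only for a lineage gene, of which 18 and 16 held over 1 UMI of Col3a1.

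A list of 30 genes reported for mature dendritic cells, none of them used by the rule, was followed as the programme list. Of its 28 genes measured against conventional dendritic cells, 22 were at least 2-fold higher in the mature cells of both libraries and 0 were at least 2-fold lower in both. Among all 8388 genes measured, 3.87% were that much higher and 3.8% that much lower. The list's median log2 ratio was 2.56 in WT and 1.96 in Gsdme-KO, beside -0.15 and -0.06 for all measured genes. The conventional class was defined by few mature markers, so part of this contrast was set by the definitions. The list was also drawn up with earlier results of these data known. The count thus describes the chosen cells and is no separate test of the label.

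**Figure D1:**
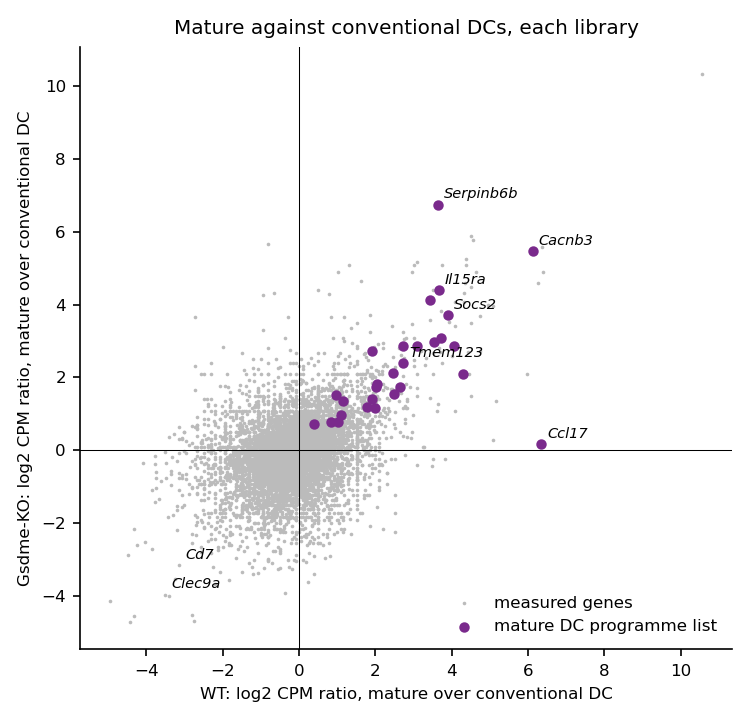
Each point is a measured gene, with a few not drawn; the axes give the log2 CPM ratio of mature over conventional dendritic cells in WT (horizontal) and in Gsdme-KO (vertical), with programme list genes in purple. Purple points lie to the upper right, with Ccl17 high in WT alone and Clec9a and Cd7 at the lower left.

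Tmem123, a membrane mucin-like protein, was the most abundant of the list at 3725 CPM (WT) and 2676 CPM (Gsdme-KO). It stood 6.62-fold (5.95 to 7.37) and 5.25-fold (4.69 to 5.89) above conventional dendritic cells. Tbc1d4, a Rab GTPase-activating protein, was at 2080 and 1618 CPM, 5.48-fold and 4.39-fold above. Samsn1, an adaptor with SH3 and SAM domains, was at 1691 and 1303 CPM, 4.04-fold and 3.36-fold above. Tbc1d4 had a UMI in 86.3% and 73.3% of mature cells, beside 6.64% and 7.88% of neutrophils (median 1669 and 1626 UMIs) and 21.0% and 22.2% of fibroblasts (median 7856 and 8466 UMIs). Thinned to 1000 UMIs per cell, these shares were 70.6% and 55.8%, 3.68% and 4.56%, and 3.41% and 4.67%, so the mature cells stood above the background of free RNA. Marcksl1, a regulator of actin, was at 1561 and 1220 CPM, 2.17-fold and 1.95-fold above, so it missed the 2-fold mark in Gsdme-KO. Relb, the NF-kB subunit tied to dendritic cell maturation, was at 574 and 358 CPM, 4.01-fold and 2.22-fold above. Serpinb9, an inhibitor of granzyme B, was at 896 and 460 CPM, 16.8-fold and 7.30-fold above.

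Against conventional dendritic cells, the 10 genes with the highest smaller ratio, taken over genes in at least 20% of mature cells of each library, were Cacnb3, Mreg, Eno3, Adcy6, Mmp25, Cxcr5, Socs2, Cd200, Il15ra and Serpinb6b. Cacnb3, a calcium channel beta subunit, was at 396 CPM in WT mature cells against 5.68 CPM in conventional ones, and at 165 against 3.71 CPM in Gsdme-KO. Mreg, melanoregulin, was at 289 against 3.41 CPM and at 138 against 4.64 CPM. Cacnb3 had a UMI in 49.0% and 42.2% of mature cells and 2.58% and 2.11% of conventional ones. For fibroblasts that share was 15.2% and 19.6%, falling to 2.06% and 3.13% after thinning, beside 33.3% and 6.98% in thinned mature cells. Cxcr5, a receptor for CXCL13, was low but level between libraries at 61.7 and 63.0 CPM. Il15ra, which presents interleukin 15 to lymphocytes, was at 130 and 98.4 CPM, 12.7-fold (6.06 to 29.7) and 21.2-fold (7.98 to 70.9) above conventional dendritic cells.

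Against all other kept cells the first 15 genes by the same rule were Il4i1, Strip2, H2-Eb2, Klri1, Mreg, Ly75, Mmp25, Ramp3, Sema7a, Zfp366, Tbc1d4, Rogdi, Kynu, Tspan33 and Kit. In that comparison 5.01% of 16618 measured genes were at least 2-fold higher in both libraries and 7.28% at least 2-fold lower. Il4i1, an amino acid oxidase that restrains T cells, stood 59.3-fold above the rest in WT and 53.3-fold in Gsdme-KO. Ly75, the antigen uptake receptor DEC-205, stood 47.8-fold and 34.2-fold above, and Mmp25, a membrane-anchored metalloproteinase, 61.9-fold and 34.1-fold. Mmp25 also had a UMI in 7.19% and 7.71% of neutrophils. Klri1, Zfp366, Tspan33 and Kit were high against the rest but were not past 2-fold against conventional dendritic cells in both libraries, and Kit, the stem cell factor receptor, was at 217 and 189 CPM beside 174 CPM in the conventional cells of both libraries.

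**Figure D2:**
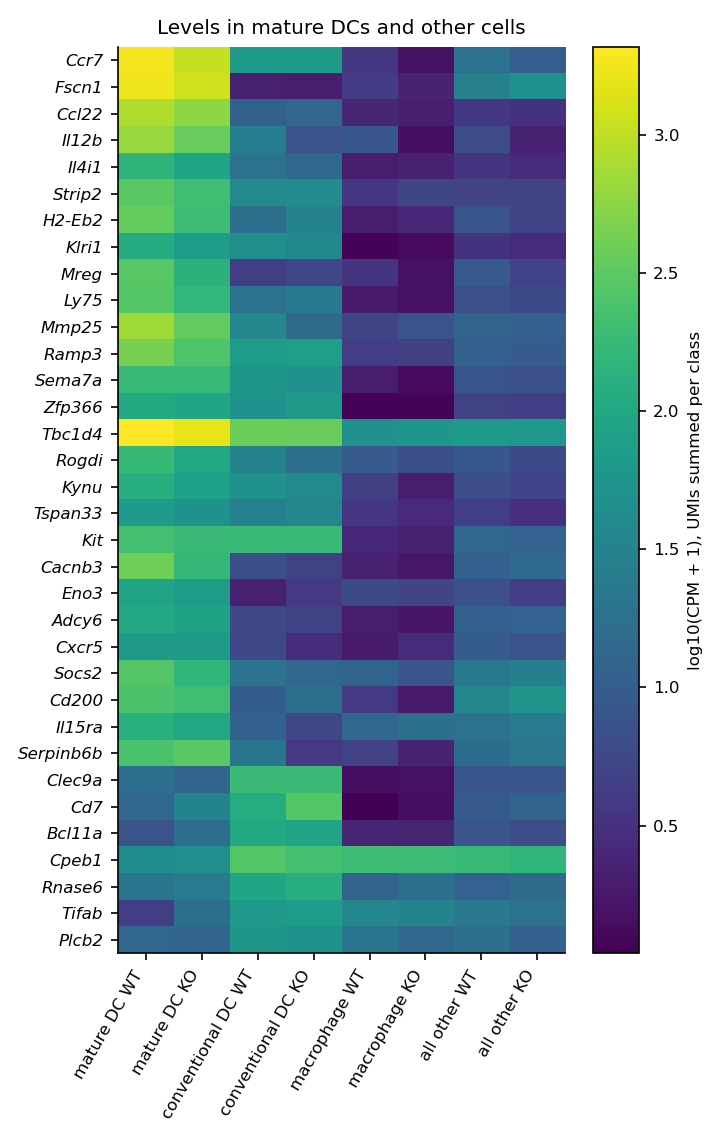
The colour gives log10(CPM + 1) of UMIs summed per class for the marker genes and the reported genes named by rank against other cells (rows) in 4 groups of cells of each library (columns). The first rows are bright in the 2 mature columns, Kit and Zfp366 are bright in both dendritic classes, and the last rows are bright in conventional dendritic cells.

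The 8 genes lowest against conventional dendritic cells included Clec9a, Cd7, Bcl11a, Cpeb1, Rnase6, Tifab and Plcb2. Clec9a, the receptor by which type 1 conventional dendritic cells (cDC1) sense dead cells, was at 16.2 and 11.8 CPM, against 185 CPM in the conventional cells of each library. Clec9a is itself a marker in the definition of the conventional class. Of 11 measured cDC1 genes 8 were at least 2-fold lower in mature cells of both libraries and 0 higher. Among all 8388 genes measured, 3.8% were that much lower and 3.87% that much higher. The conventional class was defined partly by cDC1 genes, so part of this count was set by the definitions. Wdfy4, needed for cross-presentation and also a marker of the conventional class, was at 94.1 and 66.9 CPM against 372 and 337 CPM. Irf8, the cDC1 transcription factor, was not past 2-fold at 328 and 201 CPM against 207 and 204 CPM. Ccr2, a receptor for entry from blood, was at 386 and 594 CPM against 1096 and 1214 CPM.

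Upstream sequence was read for NF-kB sites, because that family is active in maturing dendritic cells. The 250 bases upstream of the RefSeq start (GRCm38.p6) are shown 5′ to 3′ on the gene's strand, with matches to the 10-base kappa B consensus in capitals. Ramp3, a partner of calcitonin-type receptors, and Mmp25 are shown because they were the genes of the ranking against all other cells that held a match, and Il12b as a marker gene without one. The windows are chr11:44399813-44400062 (Il12b, plus), chr11:6658283-6658532 (Ramp3, plus) and chr17:23645270-23645519 (Mmp25, minus).
Il12b: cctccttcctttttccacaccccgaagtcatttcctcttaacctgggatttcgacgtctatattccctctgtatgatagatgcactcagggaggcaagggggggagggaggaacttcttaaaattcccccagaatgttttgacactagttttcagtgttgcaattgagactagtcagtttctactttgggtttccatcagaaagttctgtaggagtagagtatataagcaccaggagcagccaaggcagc
Ramp3: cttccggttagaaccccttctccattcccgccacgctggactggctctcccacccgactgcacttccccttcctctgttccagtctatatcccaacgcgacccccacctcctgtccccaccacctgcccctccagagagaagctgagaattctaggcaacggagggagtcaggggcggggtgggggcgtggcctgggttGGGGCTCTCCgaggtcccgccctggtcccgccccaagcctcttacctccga
Mmp25: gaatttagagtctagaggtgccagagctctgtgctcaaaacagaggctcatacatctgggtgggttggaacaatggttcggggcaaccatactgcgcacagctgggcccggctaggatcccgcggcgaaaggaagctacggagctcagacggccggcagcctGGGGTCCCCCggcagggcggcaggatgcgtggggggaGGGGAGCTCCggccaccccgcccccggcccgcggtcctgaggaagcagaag

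On both strands, the consensus was found for 0 of the 3 marker genes with an entry, 2 of 13 genes of the ranking against all other cells, 1 of 7 of the ranking against conventional dendritic cells, 4 of 24 programme list genes and 8 of 16 NF-kB list genes, beside 8.23% of all 27025 genes with an entry. In all, 6 spellings of the site were searched on these genes, and the consensus was taken after the matches of all of them had been seen. It matched the most, 10 of 37 genes of the rankings, the marker genes and the NF-kB list. The other spellings overlap it or one another and matched between 1 and 8 of the 37, beside 0.111% to 5.31% of all genes, and one of them matched Ccl22. A match, or the lack of one, is a description of letters in this window only. It does not show whether NF-kB binds there, and sites spelled otherwise are missed.

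The mature cells were not uniform. The number of programme list genes with a UMI ran from 3 through a median of 19 to 25 per WT cell and from 4 through 14 to 24 per Gsdme-KO cell. After thinning each cell to 1000 UMIs, 86.3% of WT and 67.4% of Gsdme-KO mature cells held at least 5 of the genes, with 2 shallower Gsdme-KO cells left out. The same share was 15.9% and 22.5% in conventional dendritic cells, 8.67% and 7.02% in macrophages, 24.0% and 24.2% in neutrophils and 2.35% and 2.16% in fibroblasts. Without thinning it was 98.0% and 97.8% in mature cells and 84.5% and 78.9% in conventional ones.

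A split chosen after the values were seen is given next. Cd209a, Clec10a and Mgl2 encode lectins of type 2 conventional dendritic cells (cDC2), and at least 1 of them had a UMI in 17 of the 51 WT cells, 33.3% (20.8 to 47.9). The Gsdme-KO share was 25 of 45, 55.6% (40.0 to 70.4), and the intervals overlapped. The cells with a lectin held a median of 14 and 13 programme genes although they were the deeper cells, with medians of 7560 and 5742 UMIs. The cells without one held a median of 20 in both libraries at medians of 4592.5 and 4618.5 UMIs. Xcr1 or Clec9a without a lectin was found in 4 WT and 0 Gsdme-KO cells. The lectins were not all particular to dendritic cells. Clec10a had a UMI in 33.8% and 49.9% of macrophages, Mgl2 in 23.7% and 28.2%, and Cd209a in 3.46% and 4.73%. A list of 12 macrophage genes summed to 8550 and 6145 CPM in cells with a lectin, and to 4068 and 1386 CPM in cells without. A lectin UMI alone thus does not name a cell cDC2.

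**Figure D3:**
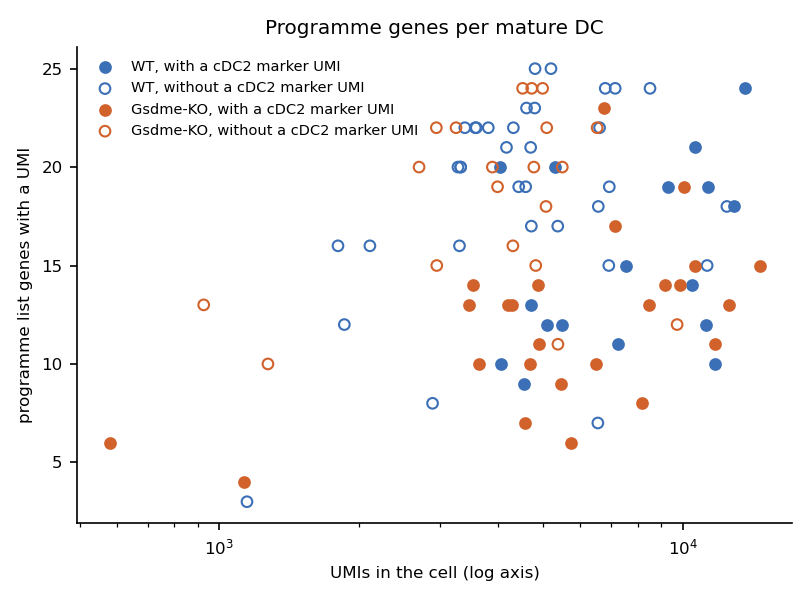
Each point is a mature dendritic cell; the horizontal log axis gives its UMIs and the vertical axis the number of programme list genes with a UMI, filled where Cd209a, Clec10a or Mgl2 had a UMI. Open points have a median of 20 genes in both libraries, and filled points, at higher UMI totals, of 14 and 13.

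Fscn1 was found in 30 of 34 WT and 17 of 20 Gsdme-KO cells without a lectin, and in 4 of 17 and 6 of 25 cells with one. Ccl22 was found in 18 of 34 and 11 of 20 cells without a lectin and in 16 of 17 and 22 of 25 with one. Its CPM had no shared order, at 640 and 676 CPM without and 1098 and 528 CPM with. Since the rule asks for 2 markers, a cell without Fscn1 had to hold others, so these marker shares depend on one another. Tmem123 was at 5253 and 6162 CPM in cells without a lectin and at 1874 and 851 CPM in cells with one. Ccr2 was at 225 and 68.7 CPM in cells without a lectin and at 582 and 869 CPM in those with one. Il12b was at 1090 and 664 CPM without and 93.3 and 198 CPM with. Ccl5, a chemokine for T cells and monocytes, was at 1374 and 3482 CPM without and 294 and 360 CPM with. In cells with 3 or 4 markers the summed programme was at 25688 and 27758 CPM, and in cells with 2 at 11847 and 9388 CPM. That split uses the genes of the rule. It also overlaps the split by lectin, since 12 of 17 WT and 21 of 25 Gsdme-KO cells with a lectin had 2 markers. It is therefore no separate support. The part of doublets in the cells that hold lectins was not tested.

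Macrophage transcripts were also uneven. C1qa, C1qb and C1qc together exceeded 10 UMIs in 8 WT and 2 Gsdme-KO cells, and 5 cells held 72.3% and 88.0% of all their UMIs. The summed level of the 12 macrophage list genes was 6094 and 4510 CPM in mature cells, against 31332 and 31017 CPM in macrophages, with 0 genes of the list at 0 UMIs in either library. The ratio of this sum was 0.740, but 1.43 without the C1q-high cells and 2.50 among cells with Cd3e, Cd79a and Col3a1 at 0 UMIs. Without lectin-holding cells it fell to 0.341. The same list was 0.836-fold in conventional dendritic cells, 0.723-fold in neutrophils, 0.627-fold in fibroblasts, 0.829-fold in T cells and 0.990-fold in macrophages. A ratio below 1 for these genes was thus not particular to the mature cells. T cell genes were nearly absent, at 6.49 and 23.6 CPM over 10 genes, of which 9 and 5 were at 0 UMIs, and B cell genes were at 38.9 and 39.4 CPM over 7 genes.

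Between the libraries, 5.22% of the 4409 genes measured in mature cells were at least 2-fold higher in Gsdme-KO and 6.58% at least 2-fold lower, with a median log2 ratio of -0.01. These shares are the background for each count of list genes between the libraries below. The summed programme list was at 18526 and 14234 CPM, 0.768-fold (0.737 to 0.801). Of its 28 measured genes 3 were at least 2-fold lower, 0 were at least 2-fold higher and 3 had a ratio above 1, with a median log2 ratio of -0.47. This order turned with the cells taken. It was 1.08-fold among cells with at least 3 markers (27 WT, 16 Gsdme-KO), 1.12-fold among cells without a lectin, and 0.507-fold among cells with Cd3e, Cd79a and Col3a1 all at 0 UMIs (30 and 26). Within lectin-holding cells it was at 11831 and 7632 CPM.

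**Figure D4:**
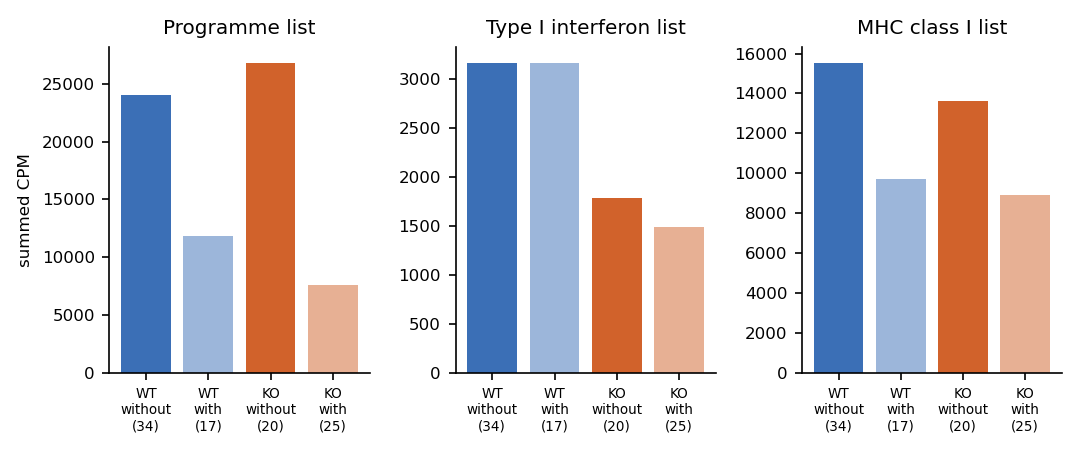
Bars give the summed CPM of 3 gene lists in mature dendritic cells without or with a UMI of Cd209a, Clec10a or Mgl2, in WT (blue) and Gsdme-KO (orange), with cell numbers in brackets. The programme bars are lower in lectin-holding cells of both libraries, and the type I interferon bars are lower in Gsdme-KO on both sides of it.

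Genes induced by type I interferon, the antiviral cytokines that also act on dendritic cells, stood lower in Gsdme-KO. Of 19 measured genes of the list 11 were at least 2-fold lower, 0 at least 2-fold higher and 1 had a ratio above 1, and the median log2 ratio was -1.22. Summed, they came to 3161 CPM (WT) and 1590 CPM (Gsdme-KO), 0.503-fold (0.447 to 0.566). It was 0.566-fold among cells without a lectin and 0.671-fold among cells with at least 3 markers, and lay between 0.426 and 0.671 over all 13 alternatives. Scaled to a common total, the list ran per WT cell from 0 through a median of 21.1 to 332. Per Gsdme-KO cell it ran from 0 through 10.8 to 70.8. What the highest WT cell added to the sum was not computed. The same list summed to 0.742-fold (0.702 to 0.785) in conventional dendritic cells, with 6 of 29 genes at least 2-fold lower and 0 higher, beside 3.72% and 2.62% of 7752 genes measured there, and to 0.642-fold in T cells, 0.778-fold in neutrophils, 0.810-fold in fibroblasts and 0.892-fold in macrophages. The ratio was thus below 1 in these 6 classes, and whether the size in mature cells differed from the others was not tested. Mx1 was not analysed here.

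Slfn5, a Schlafen family gene, was at 432 and 185 CPM, 0.429-fold (0.301 to 0.602), but 1.31-fold among cells with the lineage genes at 0. Ifih1, the RNA sensor MDA5, was at 230 and 98.4 CPM, 0.427-fold (0.259 to 0.682). Parp14, an ADP-ribosyltransferase, was at 185 and 70.8 CPM, 0.383-fold (0.212 to 0.660). Trim30a was at 315 and 161 CPM, 0.513-fold, and Ifi209 at 256 and 177 CPM, 0.691-fold. Several members rested on few cells, as with Ifit2, of which 54.5% of 22 WT UMIs lay in 1 cell and which had 1 UMI in Gsdme-KO. Oas1a was the exception above 1, with 12 UMIs in each library.

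**Figure D5:**
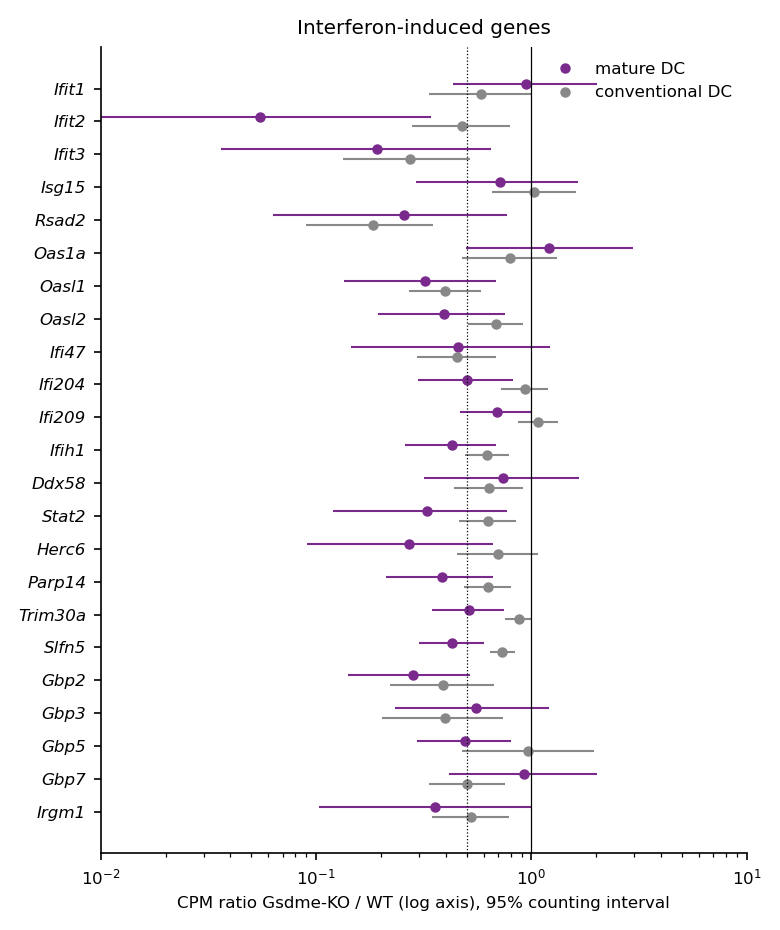
Points give the CPM ratio Gsdme-KO over WT on a log axis, with 95% counting intervals, for the measured genes of the type I interferon and interferon gamma lists that are reported here, in mature (purple) and conventional (grey) dendritic cells; intervals are drawn only between 0.01 and 10, and the dotted line marks 0.5. All purple points but Oas1a lie left of 1.

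GTPases induced by interferon gamma followed the same order, with 4 of 6 measured genes at least 2-fold lower, 0 higher, and a summed 0.531-fold (0.410 to 0.682). Gbp2, a guanylate-binding protein, was at 182 and 51.2 CPM, 0.282-fold (0.141 to 0.521), and Gbp5 at 191 and 94.5 CPM, 0.493-fold (0.293 to 0.805). The GTPase list was 0.518-fold in conventional dendritic cells and 1.01-fold in macrophages. For class I presentation 3 of 15 genes were at least 2-fold lower and 0 higher, beside 6.58% and 5.22% of all measured genes. The class I sum was 0.814-fold (0.775 to 0.855) and reached 1.01 among cells with at least 3 markers. The class I list was 0.898-fold in conventional dendritic cells, 0.839-fold in fibroblasts, 0.958-fold in neutrophils, 0.956-fold in T cells and 1.13-fold in macrophages. Tap1, the peptide transporter, was at 260 and 114 CPM, 0.440-fold (0.277 to 0.680), and Nlrc5, the activator of class I genes, at 263 and 114 CPM, 0.434-fold (0.274 to 0.671). H2-K1 was at 3920 and 3058 CPM, and B2m, the class I light chain, at 2963 and 3251 CPM.

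Costimulatory genes summed to 0.832-fold (0.766 to 0.903), with 7 of 8 measured genes below 1, 1 of them at least 2-fold lower, and 0 at least 2-fold higher. The same list was 0.891-fold in conventional dendritic cells, 0.812-fold in macrophages, 0.836-fold in neutrophils, 0.879-fold in T cells and 0.666-fold in fibroblasts. A lower sum was thus not particular to the mature cells. Cd83, a marker of dendritic cell activation, was at 1395 and 1130 CPM, Cd80 at 805 and 716 CPM, and Cd86 at 811 and 638 CPM. The ratios of Cd80 and Cd86 were above 1 without lectin-holding cells. The gene past 2-fold was Tnfsf4, the ligand of OX40 on T cells, at 191 and 39.4 CPM, 0.206-fold (0.0937 to 0.405). Tnfsf4 had a UMI in 17 WT and 5 Gsdme-KO cells and stayed at or below 0.380-fold over 13 alternatives, while in conventional dendritic cells it was at 17.1 and 52.9 CPM. Among immunoregulatory genes 0 of 11 measured were past 2-fold, beside 5.22% of all measured genes higher and 6.58% lower. The immunoregulatory sum was 0.767-fold (0.667 to 0.881). It was 0.800-fold in conventional dendritic cells, 0.732-fold in macrophages, 0.768-fold in neutrophils, 0.747-fold in fibroblasts and 0.932-fold in T cells. This lower sum was likewise not particular to the mature cells. Cd274, which encodes PD-L1, was at 548 and 327 CPM, 0.596-fold (0.452 to 0.779), and stood 5.67-fold and 4.40-fold above conventional dendritic cells. Cd274 was at 693 and 722 CPM in cells without a lectin and at 373 and 119.9 CPM in cells with one, so that its ratio without lectin-holding cells was 1.04. Cd200, the ligand of an inhibitory receptor, was at 243 and 205 CPM.

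Of 19 NF-kB genes 0 were past 2-fold between libraries, beside 5.22% of all measured genes higher and 6.58% lower. A count of 0 in so short a list is near those shares. Rel was at 2324 and 2279 CPM, and Nfkbia, the inhibitor it induces, at 1963 and 1602 CPM. Il1b was the most abundant cytokine transcript of the cytokine list at 4021 and 4600 CPM, beside 5272 and 4524 CPM in conventional dendritic cells. Il10 was at 201 and 55.1 CPM, 0.274-fold (0.142 to 0.495), from 11 and 8 cells, and without the top cell of each library it was 0.216-fold. Among cells with the lineage genes at 0 it was 0.617-fold (0.269 to 1.34). Of 11 measured chemokine genes 3 were at least 2-fold higher and 2 at least 2-fold lower, beside those same shares. Ccl5 was at 886 and 1432 CPM, 1.62-fold (1.38 to 1.90), with 26.6% of its Gsdme-KO UMIs in 1 cell, and was 0.934-fold among cells with the lineage genes at 0. It stood 10.8-fold and 17.5-fold above conventional dendritic cells. Ccl7, a monocyte chemokine, was at 19.5 and 575 CPM, but 74.7% of its Gsdme-KO UMIs lay in 1 cell that also held 77 C1q UMIs. Without the top cell of each library Ccl7 was 11.5-fold (4.13 to 44.4), and it was past 2-fold in 13 of 13 alternatives, at the lowest 4.86-fold.

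Genes of gasdermins, caspases and lytic death were looked at because of the deleted gene. Of 8 measured 1 was at least 2-fold higher and 0 at least 2-fold lower in Gsdme-KO, beside 5.22% and 6.58% of all measured genes. The higher one was Pycard, the inflammasome adaptor ASC, at 16.2 and 70.8 CPM, 4.37-fold (1.56 to 15), from 5 and 18 UMIs. Gsdmd, a related gasdermin, was at 97.4 and 106 CPM, 1.09-fold (0.624 to 1.90). Nlrp3, the inflammasome sensor, was at 1402 and 1137 CPM, close to its 1436 and 1251 CPM in conventional dendritic cells.

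Among 19 measured cytoskeleton and migration genes 2 were at least 2-fold higher and 1 lower in Gsdme-KO, beside 5.22% and 6.58% of all measured. The higher ones were the integrin chains Itgb2, at 159 and 323 CPM, and Itgb7, at 45.4 and 102 CPM, and both were higher in conventional dendritic cells, at 474 and 526 CPM and at 169 and 249 CPM. The lower one, Mmp12, had 36 WT UMIs, 69.4% of them in 1 cell, and 0 in Gsdme-KO. Marcks, a regulator of actin at the membrane, was at 2116 and 1511 CPM, 3.10-fold and 2.60-fold above conventional dendritic cells. Ptger4, a prostaglandin E2 receptor linked to dendritic cell migration, was at 441 and 264 CPM, 2.61-fold and 2.22-fold above. Of 18 immediate early genes, which dissociation can raise, 0 were past 2-fold between libraries, a count near those shares. Their most abundant member, Nr4a3, was at 3203 and 2239 CPM. Whether dissociation differed between the libraries was not tested.

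The genes furthest apart between the libraries were named by rank of the interval end nearest 1, among genes in at least 20% of cells of the higher library and with no cell holding over 25% of its UMIs. The 12 higher in Gsdme-KO were Arid5b, Nop58, Psmc5, Clec10a, Lsm6, Cd209a, Add3, Pdap1, Cd2ap, Slc43a2, Klrd1 and S100a10. Nop58, a core protein of box C/D ribonucleoproteins, was at 51.9 and 216 CPM, 4.17-fold (2.35 to 7.79), beside 1.21-fold in conventional dendritic cells. Cd209a was at 396 and 921 CPM, 2.33-fold (1.86 to 2.92), with a UMI in 10 and 21 cells. It was 1.03-fold (0.357 to 2.70) among cells with at least 3 markers and 1.69-fold without C1q-high cells, so the 2-fold mark was not held. Clec10a was at 87.6 and 264 CPM, 3.01-fold (1.90 to 4.89), but 0.830-fold after thinning each cell to 1000 UMIs. S100a10, a partner of annexin A2, was at 104 and 275 CPM, 2.65-fold, and was also 2.01-fold higher in all other kept cells. Klrd1 was at 146 and 366 CPM, 2.51-fold, and 0.887-fold among cells with at least 3 markers.

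The 12 lower in Gsdme-KO were Timd4, Cd81, Tpm3-rs7, Papss2, Dck, Ctse, Mical3, Tnfsf4, Plau, Ms4a7, C1qb and C1qc. Timd4, a phosphatidylserine receptor, was at 406 and 35.4 CPM, 0.0873-fold (0.0390 to 0.171), with a UMI in 25 and 4 cells, and was also 0.197-fold in all other kept cells. Tpm3-rs7 was at 425 and 86.6 CPM and was 0.136-fold in all other kept cells. It is a tropomyosin-related sequence, so its reads may be shared with a near-identical gene. Cd81, a tetraspanin, was at 104 and 7.87 CPM, 0.0758-fold (0.00880 to 0.297), beside 0.981-fold in all other kept cells. It had a UMI in 16 WT and only 2 Gsdme-KO cells. Cd81 stayed past 2-fold in 12 of 13 alternatives and was at most 0.712-fold. Dck, deoxycytidine kinase, was at 110 and 11.8 CPM, 0.107-fold (0.0210 to 0.340), and Papss2, a sulfate donor synthase, at 153 and 19.7 CPM, 0.129-fold (0.0400 to 0.323). Both ratios rest on 3 and 5 Gsdme-KO UMIs. C1qb was at 672 and 228 CPM and C1qc at 743 and 291 CPM, beside the uneven C1q cells above, and both were higher in Gsdme-KO, 2.18-fold and 2.63-fold, among cells with the lineage genes at 0. Of the 24 genes of both lists, 20 kept their side of 1 and 13 stayed past 2-fold under every alternative that gave a value.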

How the data were processed

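Gene-by-cell UMI counts were used as deposited; per the submitters' processing notes CASAVA 1.8, STARsolo and mm10 were used, and further settings are not given in the sources used here. From these counts, cells were filtered and classed by marker genes without clustering, UMIs were summed per library and class, and ratios and intervals were computed with Python 3.11.15, numpy 2.4.6, scipy 1.17.1 and pandas 2.3.3; figures used matplotlib 3.10.9. Of 31253 features, 31107 had an entry in GENCODE vM21. Totals over all barcodes were 38988898 UMIs in WT and 52532964 in Gsdme-KO. The interval for a ratio was tried on counts simulated as independent Poisson draws, the model it assumes. That could not check it for genes whose UMIs gather in single cells. Members and the 37 gene lists were chosen with earlier results of these data known.

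Named genes were the first 12 each way between libraries, the first 15 against all other kept cells, the first 10 above and 8 below conventional dendritic cells, the most abundant members of the lists, Gsdme and the 8 genes of the rule. Gene models, ribosomal, mitochondrial, haemoglobin, antigen receptor, Xist, Tsix and chromosome Y genes were left out, and symbols given to more than 1 feature were left out as a later addition. Other genes named in the text (such as Il10, Ccl7, Tap1, Nlrc5, Ifih1, Parp14, Relb and Serpinb9), the lectin split and the promoter spellings were chosen after their values were seen. Alternatives covered cell filters, marker rules, C1q-high and deepest cells, depth, scaling and count minimums; leaving out lectin-holding cells and cells with under 10 programme genes was added after seeing the data. Some genes that met these rules are not reported here.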

Additional observations from a re-analysis of the deposited data

Results flagged for a closer look

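Of 323 listed or named genes measured in mature dendritic cells, 18 had Gsdme-KO over WT ratios whose counting intervals lay on opposite sides of 1 in mature and in conventional dendritic cells. With 1 library per group this difference was not tested, and the intervals cover counting error only. Some of the 323 were named for their Gsdme-KO over WT ratio in mature cells. The same share over all measured genes was not computed, so the count of 18 is no result about these genes as a set. In the mature cells the ratio was below 1 for Actb (0.854), Ccl17 (0.191), Dpp4 (0.612), H2-Eb2 (0.583), Id2 (0.768), Stat4 (0.756), Tmsb10 (0.700) and Tnfsf4 (0.206). In conventional cells those ratios ran from 1.03 for Actb to 13.9 for Ccl17, with Tnfsf4 at 3.10. The conventional Ccl17 ratio came from low levels, 2.27 and 31.5 CPM, and its interval was wide (3.56 to 119). The ratio was above 1 in mature cells for Clec4n (3.40), Fn1 (2.03), Hspa1a (4.76), Hspa1b (4.53), Il1b (1.14), Itgax (1.86), Lyve1 (13.3), Mmp14 (1.85), Msr1 (2.58) and Nr4a2 (1.47). In conventional cells those ratios ran from 0.300 for Msr1 to 0.858 for Il1b. Hspa1a had 93.3% and Hspa1b 85.0% of their Gsdme-KO UMIs in 1 cell, and Lyve1 66.7%. Fn1 had 67.3% of its WT and 42.4% of its Gsdme-KO UMIs in 1 cell of each library. Without the top cell of each library Hspa1a was 0.509-fold (0.227 to 1.07). Ccl17 had 64.9% of its WT UMIs in 1 cell and was found in 5 cells of each library. It was 0.298-fold without the top cell of each library and 1.65-fold among cells with Cd3e, Cd79a and Col3a1 at 0 UMIs.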

How the results depend on the processing

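No paired analysis was possible because each group had 1 library. The ratio of abundance stayed below 1, between 0.510 and 0.931 over 10 alternatives. The count of programme list genes above conventional dendritic cells lay between 20 and 25. With at least 3 markers the summed ratios were 1.08 (programme), 0.671 (type I interferon) and 1.01 (class I), Klrd1 was 0.887 and Mreg 1.05. With lineage genes at 0 they were 0.507, 0.647 and 0.631, 11.2% and 11.8% of genes were 2-fold higher and lower, and C1qb was 2.18, C1qc 2.63, Ccl17 1.65 and Slfn5 1.31. Without C1q-high cells the ratios were 0.682, 0.426, 0.397 (GTPases) and 0.729. Without the deepest cells the programme ratio was 0.812. Thinning gave 0.683 for GTPases, 0.770 for class I and 0.830 for Clec10a, and averaging over cells gave 0.435 for type I interferon. Without lectin-holding cells, an alternative chosen after seeing the data, the ratios were 1.12, 0.566 and 0.876, 10.2% of genes were 2-fold lower, and Ccl6 was 0.967. With no count minimum 8.29% of genes were 2-fold higher, and with a minimum of 50 UMIs 2.57% were higher and 3.57% lower. The cause of these shifts was not tested, except that a minimum changes which genes enter. In all, 75 values answering a comparison moved by less than their counting interval or set tolerance and 23 moved more; for single genes and lists these were 698 and 166, of which 4 and 26 crossed equality, and 8 more, past 2-fold, changed side. With 96 cells, genes under 20 UMIs could not be described.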
